A study of Homo sapiens with 6 samples.

Results

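The matrix metalloproteinases (MMPs), the ADAM and ADAMTS proteases and their tissue inhibitors (TIMPs) were followed in clonal derivatives of MiaPaCa2, a line grown from a human pancreatic ductal adenocarcinoma. Genes were taken by symbol, from MMP, ADAM, ADAMTS or TIMP followed by a number, leaving out symbols that contain a hyphen or end in P. This gave 74 of 26334 symbols, made up of 24 MMP, 26 ADAM, 20 ADAMTS and 4 TIMP genes, of which 66 are coding genes and 8 are pseudogenes in the RefSeq annotation. Messenger RNA was counted in 6 libraries, each from 2000 lysed cells of a sorted clone grown in DMEM with 10% serum. The 3 ZEB1-KO clones had received a plasmid carrying Cas9, GFP and a guide against ZEB1, a transcription factor that represses genes of epithelial cells. The 3 WT clones had received the Cas9-GFP plasmid, for which the labels name no guide, so all 6 clones had been electroporated and sorted for GFP. Each library is thus a separate clone, and a difference between groups cannot be told apart from differences among clones except through the spread of 3 against 3.

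MMPs are zinc-dependent enzymes, secreted or held at the membrane, that are made as inactive precursors and cut collagens, other matrix proteins and one another once their prodomain is removed. Most ADAMs are membrane proteins, and the catalytic ones release the outer parts of growth factors, cytokines and receptors from the cell surface, while ADAMTS enzymes are secreted and act on proteoglycans, procollagens and von Willebrand factor. TIMPs bind the active site of these enzymes, and in pancreatic tumours both proteases and inhibitors are made by cancer cells and by the fibroblasts around them.

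The total count lay between 18909305 and 42876693 per library, and 3 counts corresponded to between 0.0687 and 0.150 CPM (counts scaled to library size, on TMM-scaled totals). ZEB1 was at 34.0, 31.2 and 33.6 CPM in WT clones 1, 2 and 3, and at 3.34, 3.46 and 11.5 CPM in ZEB1-KO clones 1, 2 and 3. Every ZEB1-KO clone lay below every WT clone, with transcript still counted in each. Among markers of ductal epithelium, KRT8, KRT18 and KRT19 were counted in all libraries. KRT8 was at 719 to 875 CPM in WT clones and at 1631 to 2116 CPM in ZEB1-KO clones. MUC1 was at 1.60 to 9.33 CPM over all libraries, whereas EPCAM and CDH1 did not exceed 0.0988 CPM. KRT7 was also low, with 25, 4 and 0 counts in WT clones and 0, 4 and 17 counts in ZEB1-KO clones. Of 6 fibroblast markers, LUM, DCN, FAP and POSTN had 0 counts in all 6 libraries, and the summed level of the 6 did not exceed 0.156 CPM. Markers of endothelial, blood and of acinar and islet cells summed to at most 3.14, 14.7 and 0.199 CPM, and the blood sum was highest in WT clone 1, where CD14 gave 11.1 CPM.

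The stromelysins MMP3 and MMP10 and the collagenase MMP1 stood far above their WT levels in ZEB1-KO clones 1 and 3, and close to those levels in ZEB1-KO clone 2. MMP3 (stromelysin-1), which cuts many matrix proteins and activates other MMP precursors, had 14, 13 and 1 counts in WT clones 1, 2 and 3 and 6919, 23 and 15273 counts in ZEB1-KO clones 1, 2 and 3. As levels these were 0.321, 0.401 and 0.0405 CPM in WT clones and 345, 0.568 and 475 CPM in ZEB1-KO clones. The groups did not overlap, but ZEB1-KO clone 2 exceeded the highest WT clone only slightly, while the other ZEB1-KO clones held at least 345 CPM.

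MMP1 (interstitial collagenase), which opens the triple helix of fibrillar collagen, was at 3.07, 1.20 and 0.486 CPM in WT clones and 119, 1.75 and 824 CPM in ZEB1-KO clones. ZEB1-KO clone 2 therefore lay inside the WT range for MMP1, and the groups overlapped. MMP10 (stromelysin-2), a close relative of MMP3, was at 0.160, 0.0308 and 0.0405 CPM in WT clones and 2.19, 0.272 and 10.6 CPM in ZEB1-KO clones. Its WT counts were 7, 1 and 1, so most of its WT values lay below the 3-count level, and ZEB1-KO clone 2, with 11 counts, was the lowest of its group.

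**Figure D1:**
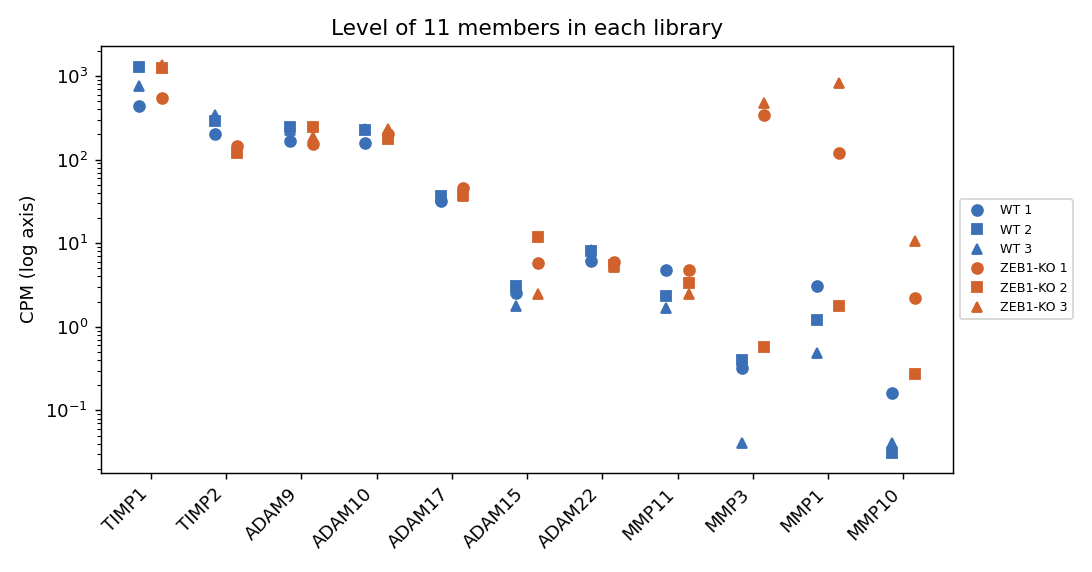
Level of 11 members in each library, in CPM on a log axis, with WT clones in blue on the left and ZEB1-KO clones in orange on the right of each position, and the marker shape giving the clone number. The TIMP and ADAM genes span far narrower bands than MMP3 and MMP1, while MMP3, MMP1 and MMP10 reach 475, 824 and 10.6 CPM in ZEB1-KO clone 3 and stay at 0.568, 1.75 and 0.272 CPM in ZEB1-KO clone 2.

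In edgeR's quasi-likelihood test, MMP3 had a log2 fold change of 9.97 ± 2.09 (SE, adjusted p = 0.0945), the largest in absolute size among the 13659 genes tested. MMP1 followed at 7.59 ± 1.88 (SE, adjusted p = 0.115), which ranked 2 of 13659. MMP10 ranked 17, at 5.63 ± 1.34 (SE, adjusted p = 0.110). None of these differences passed 0.05 after adjustment over all genes. For any 1 gene, exact permutation of 3 clones against 3 cannot give a p below 0.1.

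These 3 calls depended on the test. DESeq2 called MMP3, MMP1 and MMP10 higher, with adjusted p-values of 5.73e-06, 0.000671 and 0.00406, and edgeR's likelihood ratio test called the same 3 genes. The authors' deposited table, which lists MMP1 at a log2 fold change of 7.61, gives it an adjusted p of 0.0151. Limma-voom estimated the MMP3 difference at 7.62 on the log2 scale (adjusted p = 0.383). Leaving out ZEB1-KO clone 2 brought MMP3 past the threshold in the quasi-likelihood test (log2 fold change 10.55, adjusted p = 0.00464) while MMP1 and MMP10 stayed outside it at 0.0688 and 0.0832. Without ZEB1-KO clone 3 the log2 fold changes of MMP1 and MMP10 were 5.21 and 3.76.

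These genes also varied widely among the ZEB1-KO clones. MMP3 had the widest range of log2 CPM among the ZEB1-KO clones of all 13659 genes tested, at 9.56, against a median range of 0.71 over all genes. The range of MMP1 was 8.83, at rank 4, and MMP10 came at rank 74. Among the WT clones the same ranges were 2.17, 2.51 and 1.26, against a median of 0.61. ZEB1-KO clone 3 exceeded clone 2 by 837 times in MMP3, 470 times in MMP1 and 39.2 times in MMP10, and clone 1 exceeded clone 2 by 608, 67.7 and 8.08 times. Clone 1 and clone 3 differed less in MMP3 than in the other pair of genes, with clone 1 at 0.726 of the clone 3 level in MMP3, 0.144 in MMP1 and 0.206 in MMP10. ZEB1 itself was at 3.34, 3.46 and 11.5 CPM in ZEB1-KO clones 1, 2 and 3, and its relation to the MMP levels was not tested. Of the 6 fibroblast markers, 4 were at 0 counts in all clones, and in ZEB1-KO clones 1, 2 and 3 PDGFRA had 0, 0 and 5 counts and PDGFRB 2, 0 and 0. The endothelial cadherin CDH5 was at 0.549, 0.0925 and 0.0405 CPM in WT clones and 2.94, 0.0247 and 0.684 CPM in ZEB1-KO clones (log2 fold change 2.24, adjusted p = 0.400). CDH5 was thus higher in ZEB1-KO clones 1 and 3 than in clone 2, as the MMPs were, while the endothelial markers VWF and KDR had at most 2 counts in any library and PECAM1 was highest in ZEB1-KO clone 2 within that group. The part of other cell types in the MMP levels was not tested. In a bulk library, a higher level in all cells and a larger share of expressing cells cannot be told apart.

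MMP1, MMP3 and MMP10 lie side by side in a run of 9 MMP genes on chromosome 11, in the RefSeq order MMP7, MMP20, MMP27, MMP8, MMP10, MMP1, MMP3, MMP12 and MMP13. The next genes of the run had the same clones on top at far lower levels. MMP12 (macrophage elastase) had 0 counts in every WT clone and 3, 0 and 24 counts in ZEB1-KO clones 1, 2 and 3. MMP13 (collagenase-3) had 4, 0 and 0 counts in WT clones and 11, 2 and 23 counts in ZEB1-KO clones. Neither gene was abundant enough to be tested. At the other end of the run the genes were nearly silent in all clones, with 0, 4 and 1 counts in WT clones and 0 in every ZEB1-KO clone for MMP7 (matrilysin), at most 4 counts per library for MMP20 (enamelysin), at most 1 for MMP8 (neutrophil collagenase) and 0 for MMP27.

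Of the 10 coding genes that flank the run, 5 on each side, 9 were tested, and none passed adjustment. On the MMP7 side, the 5 nearest genes were CFAP300 (listed as C11orf70), the transcriptional coactivator YAP1, the apoptosis inhibitors BIRC3 and BIRC2, and TMEM123. In all 5, each ZEB1-KO clone lay below each WT clone, with log2 fold changes from -1.77 (BIRC3) to -0.59 (TMEM123) and adjusted p-values from 0.151 to 0.241. Over all tested genes, 11.7% lay lower in this way. On the MMP13 side, DCUN1D5 lay higher in each ZEB1-KO clone, with a log2 fold change of 0.59 (adjusted p = 0.182), and the other 3 tested genes overlapped between the groups. DYNC2H1 and CASP4 had log2 fold changes of 0.31 and 0.17 (adjusted p = 0.774 and 0.940), and DDI1 had at most 1 count in any library. CASP4 varied widely within both groups, at 131, 169 and 6.92 CPM in WT clones and 195, 43.7 and 106 CPM in ZEB1-KO clones. PDGFD, a platelet-derived growth factor chain further along on that side, was at 1.65, 5.98 and 0.0405 CPM in WT clones and 12.9, 2.15 and 23.6 CPM in ZEB1-KO clones. ZEB1-KO clones 1 and 3 were thus highest in PDGFD as well, though the groups overlapped (log2 fold change 2.32, adjusted p = 0.346).

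**Figure D2:**
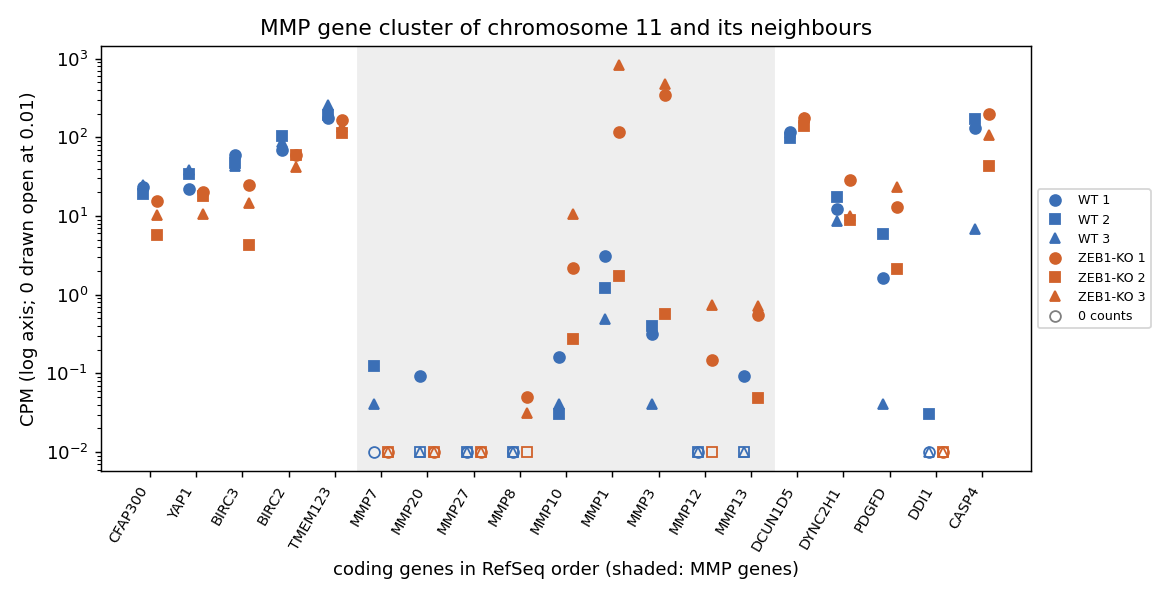
Level of 19 coding genes in RefSeq order, in CPM on a log axis, with the 9 MMP genes shaded, WT clones in blue and ZEB1-KO clones in orange, and values of 0 drawn open at the foot. MMP10, MMP1 and MMP3 reach 10.6, 824 and 475 CPM in ZEB1-KO clone 3, while the 5 genes to the left of the run lie lower in every ZEB1-KO clone than in every WT clone.

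Promoter windows of 3 genes of this run are shown with short motifs marked, and the relation of the motifs to the levels was not tested. The 250 bases before the RefSeq start (GRCh38.p14, minus strand) are given for MMP10, MMP8 and MMP7, which lie in the same run. MMP10 had 7, 1 and 1 counts in WT clones and 44, 11 and 342 counts in ZEB1-KO clones 1, 2 and 3. MMP8 and MMP7 stayed at 0 to 4 counts in every library. Capitals mark matches to TGAGTCA (the AP-1 site), CAGGTG (an E-box bound by ZEB1) and TATAAA (the TATA box), searched on both strands.
MMP10, chr11:102780629-102780878: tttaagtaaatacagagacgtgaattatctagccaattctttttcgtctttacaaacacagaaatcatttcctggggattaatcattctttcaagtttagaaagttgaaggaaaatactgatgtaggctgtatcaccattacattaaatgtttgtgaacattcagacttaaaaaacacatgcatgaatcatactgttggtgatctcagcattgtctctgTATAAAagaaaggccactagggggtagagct
MMP8, chr11:102724955-102725204: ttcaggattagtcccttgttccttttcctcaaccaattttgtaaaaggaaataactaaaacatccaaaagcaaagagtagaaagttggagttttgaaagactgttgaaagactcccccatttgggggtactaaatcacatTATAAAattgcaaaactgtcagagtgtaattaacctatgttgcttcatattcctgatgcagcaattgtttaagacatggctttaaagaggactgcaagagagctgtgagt
MMP7, chr11:102530748-102530997: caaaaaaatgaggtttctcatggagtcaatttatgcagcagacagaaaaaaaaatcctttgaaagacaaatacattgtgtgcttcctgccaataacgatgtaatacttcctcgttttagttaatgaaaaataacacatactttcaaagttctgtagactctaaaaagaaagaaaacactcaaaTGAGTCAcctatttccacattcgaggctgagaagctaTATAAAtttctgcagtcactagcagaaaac
TATAAA began 31 bases before the start in MMP10, 30 bases before it in MMP7 and 110 bases before it in MMP8. TGAGTCA was found in MMP7, 67 bases before the start, and in neither of the other windows, and CAGGTG was in none of the 3. Across 27305 RefSeq promoter windows of this length, 11.1% held TATAAA, 17.5% held CAGGTG and 4.16% held TGAGTCA. Of 39 members with a promoter in the RefSeq table, 7 held TATAAA, 8 held CAGGTG and 1 held TGAGTCA, and MMP1, MMP3, MMP12, MMP13 and TIMP2 are not among the 39 and were not searched. The 8 with CAGGTG were ADAM8, ADAM19, ADAM21, ADAM29, ADAM30, ADAMTS17, MMP15 and MMP26. Only exact matches were searched, so variants of these sites were not counted. A match describes the letters of a window and is not a measured binding site.

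Reads from closely related MMPs can be hard to assign, and shared sequence was measured between them. Of the 50-base words in the longest coding MMP3 transcript of GENCODE, 2.88% also occur in MMP10, and 3.27% of those in MMP10 occur in MMP3. No such word was shared between any other pair among MMP1, MMP3, MMP8, MMP10, MMP11, MMP12 and MMP13. The pseudogene WTAPP1 overlaps MMP1 and MMP3, and it had 0 counts in every WT clone and 19, 1 and 38 counts in ZEB1-KO clones 1, 2 and 3. SMART-Seq2 keeps no strand information, and reads in the overlap could belong to either gene.

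The other MMPs were low. Of the gelatinases, which cut denatured and basement-membrane collagen, MMP2 had 0 counts in all 6 libraries and MMP9 had 1, 1 and 0 counts in WT clones and 0, 0 and 1 in ZEB1-KO clones. MMP14, the membrane-type enzyme that activates the MMP2 precursor, had 1, 0 and 1 counts in WT clones and 0, 1 and 0 in ZEB1-KO clones. MMP15, another membrane-type MMP, was at 2.17, 0.987 and 1.13 CPM in WT clones and 1.45, 1.41 and 1.09 CPM in ZEB1-KO clones, with overlapping groups (log2 fold change -0.13, SE 0.42, adjusted p = 0.891). MMP11 (stromelysin-3), the remaining stromelysin, lies outside the run and did not share the pattern of MMP3. Its levels were 4.78, 2.34 and 1.66 CPM in WT clones and 4.84, 3.36 and 2.49 CPM in ZEB1-KO clones (log2 fold change 0.27, adjusted p = 0.794). MMP19 was counted mainly in WT clone 1, with 66 counts there, 1 and 4 in the other WT clones and 8, 5 and 3 in ZEB1-KO clones, too few to be tested. Over all 24 MMP genes the summed level was 12.7, 5.46 and 4.05 CPM in WT clones and 474, 7.90 and 1315 CPM in ZEB1-KO clones.

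Of the inhibitors, TIMP2 lay lower in every ZEB1-KO clone and TIMP1 did not separate the groups. TIMP2, which inhibits MMPs and also helps MMP14 to activate MMP2, was at 204.0, 291.6 and 345 CPM in WT clones and 146.4, 119.0 and 129.0 CPM in ZEB1-KO clones. The means were 280.2 CPM ± 71.3 and 131.5 CPM ± 13.8 (SD, n = 3 each), and the log2 fold change was -1.09 ± 0.24 (SE). Its adjusted p of 0.0981 in the quasi-likelihood test did not pass 0.05. DESeq2 gave an adjusted p of 0.00574, and the authors' deposited table lists TIMP2 at -1.10 on the log2 scale (adjusted p = 0.0125). TIMP2 had the same direction in all 18 alternative analyses, with log2 fold changes from -1.26 to -0.78, and passed 0.05 in 2 of them. Unlike the MMPs of the run, TIMP2 was even among the ZEB1-KO clones, with a range of 0.30 in log2 CPM.

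TIMP1, a secreted inhibitor of most MMPs and of ADAM10, was at 443, 1294 and 749 CPM in WT clones and 543, 1244 and 1342 CPM in ZEB1-KO clones. The groups overlapped over almost their whole range (log2 fold change 0.33, SE 0.45, adjusted p = 0.730). TIMP3, a matrix-bound inhibitor of MMPs, ADAM17 and several ADAMTS enzymes, had 1 count in ZEB1-KO clone 2 and 0 in the other libraries. TIMP4 had 1 count in each of WT clone 2 and ZEB1-KO clone 1. Differences in TIMP3 and TIMP4 were therefore not detectable at this depth.

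The main sheddases differed little between the groups. ADAM10, which cuts Notch receptors and many adhesion proteins, was at 159.0, 225.0 and 233.5 CPM in WT clones and 204.5, 177.8 and 230.4 CPM in ZEB1-KO clones. Its groups overlapped (log2 fold change -0.01, SE 0.22, adjusted p = 0.983). ADAM17, the enzyme that releases TNF and ligands of the EGF receptor, was at 31.6, 36.3 and 34.8 CPM in WT clones and 46.0, 37.9 and 36.3 CPM in ZEB1-KO clones (log2 fold change 0.23, SE 0.20, adjusted p = 0.589). ADAM9, another membrane sheddase, was at 168.7, 245.7 and 225.9 CPM in WT clones and 155.7, 243.7 and 184.9 CPM in ZEB1-KO clones (log2 fold change -0.13, SE 0.24, adjusted p = 0.809).

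ADAM15, a membrane ADAM with an integrin-binding motif, had the only difference among the ADAM genes at an unadjusted p below 0.05. Its levels were 2.54, 3.08 and 1.78 CPM in WT clones and 5.78, 11.9 and 2.49 CPM in ZEB1-KO clones. The groups overlapped, because ZEB1-KO clone 3 lay below WT clones 1 and 2. The log2 fold change was 1.45 ± 0.55 (SE, adjusted p = 0.221), and it was 0.73 without ZEB1-KO clone 2, the clone in which MMP1 and MMP3 were lowest among the ZEB1-KO clones. ADAM22, a non-catalytic ADAM that serves as a receptor at synapses, was at 6.20, 8.08 and 8.22 CPM in WT clones and 5.98, 5.55 and 5.20 CPM in ZEB1-KO clones. The ADAM22 values did not overlap between groups, and the log2 fold change of -0.43 did not pass the test (adjusted p = 0.435). Summed over 26 ADAM genes, the level was 470.3 CPM ± 80.9 for WT clones (SD, n = 3) and 458 CPM ± 29.1 for ZEB1-KO clones (SD, n = 3).

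ADAMTS genes were near the limit of detection throughout, with a level summed over 20 genes of 3.81 CPM ± 1.03 for WT clones (SD, n = 3) and 3.33 CPM ± 0.504 for ZEB1-KO clones (SD, n = 3). The 4 that were tested were ADAMTS4, an aggrecanase, ADAMTS13, which trims von Willebrand factor, ADAMTS16 and ADAMTS17. ADAMTS13 was at 0.710, 0.678 and 0.769 CPM in WT clones and 0.399, 0.494 and 0.467 CPM in ZEB1-KO clones, with no overlap and a log2 fold change of -0.65 (adjusted p = 0.388). The log2 fold changes of ADAMTS4 and ADAMTS17 were -0.54 and -0.57, and that of ADAMTS16 was 0.52. ADAMTS1 and ADAMTS5, both aggrecanases, had at most 2 counts in any library. The procollagen N-proteinases ADAMTS2, ADAMTS3 and ADAMTS14 had at most 14 counts in any library and were not tested.

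Across the 74 genes, 22 were abundant enough to be tested, of which 0 passed an adjusted p of 0.05 in the quasi-likelihood test, where 0.176% of 13659 genes did (0.117% higher and 0.0586% lower). At an adjusted p below 0.1, 2 of the 22 passed (MMP3 and TIMP2), as did 1.79% of all tested genes. At an unadjusted p below 0.05, 4 of the 22 were higher (MMP3, MMP1, MMP10 and ADAM15), where 9.64% of all tested genes were, and 1 was lower (TIMP2), where 8.04% were. MMP3 and MMP10 lay higher without overlap between the groups, as did 11.9% of tested genes, and TIMP2, ADAM22 and ADAMTS13 lay lower without overlap, as did 11.7%. The 3 of 22 that lay lower were near that share. With DESeq2, 3 of 20 members that had an adjusted p were called higher, beside 4.34% of all genes, and 1 was called lower, beside 2.78%. With edgeR's likelihood ratio test 3 of 22 were called higher, beside 2.75% of all genes, and 1 lower, beside 1.76%. Of 12 members in the authors' deposited table, 1 was called higher, beside 2.82% of its genes, and 1 lower, beside 1.92%.

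The median log2 fold change of the 22 tested genes was 0.107, against -0.008 over all genes, and 11 of the 22 lay above 0. The median was -0.016 over the 13 members with at least 1 CPM in 3 libraries, -0.007 without WT clone 3 and -0.006 without ZEB1-KO clone 1, so its sign was not stable. MMP10, with 7, 1 and 1 counts in WT clones, entered the test through its ZEB1-KO counts alone, so that it had to differ between the groups. MMP3 had 14, 13 and 1 counts in WT clones 1, 2 and 3. The filter asks for its minimum count, scaled to library size, in at least 3 libraries. WT clones 1 and 2 reached it for MMP3 and WT clone 3 did not, so the WT clones alone could not bring MMP3 in. The 3 ZEB1-KO clones alone could. Counts of members higher that include MMP3 or MMP10 therefore lean on the filter. The counts of members given here are descriptions. The 14 tested genes other than MMP1, MMP3, MMP10, ADAM10, ADAM15, ADAM17, TIMP1 and TIMP2 had log2 fold changes between -0.65 and 0.76 and adjusted p-values of at least 0.388. Of the 52 untested genes, 12 had 0 counts in all libraries, 24 had a highest count of 1 to 3, 7 had a highest count of 4 to 9 and 9 had one of 10 to 66.

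**Figure D3:**
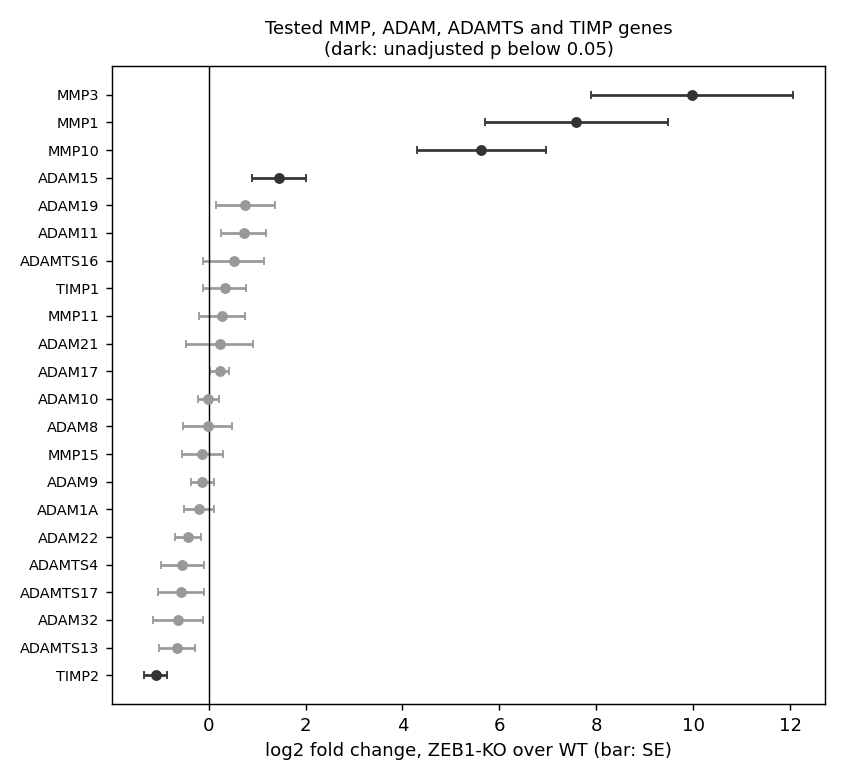
Log2 fold change of ZEB1-KO over WT for the 22 tested genes with bars of 1 SE from edgeR's quasi-likelihood fit, dark where the unadjusted p was below 0.05. MMP3, MMP1 and MMP10 stand apart at 9.97, 7.59 and 5.63 with SEs of 2.09, 1.88 and 1.34, and TIMP2 is the lowest at -1.09.

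Levels can be compared between genes only per length, which the deposited TPM values (transcript levels scaled for length and depth) allow for 12 of the 74 genes. Each gene listed there had at least 1 CPM, on total counts, in 3 or more libraries, whereas MMP3 and MMP10 reached 1 CPM in 2 libraries and have no TPM value in this table. TIMP1 was the most abundant of the 12 in every library, from 749 to 2505 TPM. ADAM9 (61.7 to 110 TPM), TIMP2 (58.5 to 132 TPM) and ADAM10 (49.0 to 75.9 TPM) came next by median level, and these 3 neighbours overlapped in range. ADAM17 lay below them at 13.3 to 21.0 TPM, and MMP11, ADAM15, ADAM22, ADAM8, MMP15 and ADAM11 did not exceed 6.43 TPM in any library.

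MMP1 took the widest span of the TPM values. Its levels were 2.31, 0.759 and 0.331 TPM in WT clones and 93.8, 1.57 and 665 TPM in ZEB1-KO clones. In ZEB1-KO clone 3 it was above all of the 12 listed genes but TIMP1, and in ZEB1-KO clone 2 it was below ADAM15 and MMP11. MMP3, at 475 CPM in ZEB1-KO clone 3, has no TPM value and is not part of this ranking. On this scale 4 of the 12 genes (ADAM10, ADAM11, ADAM15 and ADAM17) lay higher in every ZEB1-KO clone than in every WT clone, as did 23.3% of all genes listed, and 1 (TIMP2) lay lower, as did 4.78%. All 4 overlapped between the groups in CPM. ADAM17 was at 13.8, 13.3 and 13.7 TPM in WT clones and 21.0, 19.7 and 16.96 TPM in ZEB1-KO clones. The TPM scale moved the median log2 fold change of all genes to 0.233 (log2 of TPM + 1, mean TPM of at least 1), and the ADAM17 difference of 0.47 on that scale had an adjusted p of 0.199 with limma.

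**Figure D4:**
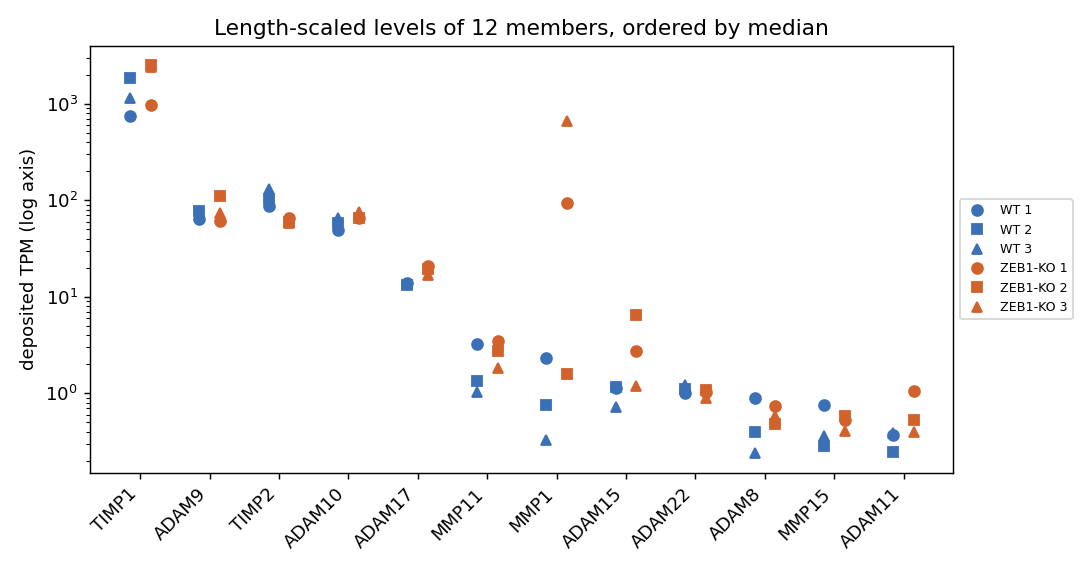
Deposited TPM values of 12 members in each library on a log axis, ordered by their median over the 6 libraries, with WT clones in blue and ZEB1-KO clones in orange. TIMP1 is highest in all libraries, and MMP1 spans from 0.331 TPM in WT clone 3 to 665 TPM in ZEB1-KO clone 3.

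Genes that work with these proteases were taken from 6 further lists, of which 0 members were called in either direction in the quasi-likelihood test. The counts at an unadjusted p below 0.05 stand beside 9.64% of all tested genes higher and 8.04% lower. In lists of this size 1 gene is near that share or too few to set against it. Of all tested genes, 11.9% lay higher and 11.7% lower without overlap between the groups. Of 9 tested partners of ADAM10 and ADAM17, 1 was higher at an unadjusted p below 0.05. This was RHBDF2, which encodes iRhom2, the protein that carries ADAM17 to the cell surface, at 6.27, 3.92 and 3.48 CPM in WT clones and 14.8, 18.7 and 8.34 CPM in ZEB1-KO clones. Its groups did not overlap, with a log2 fold change of 1.61 (adjusted p = 0.111, and 0.00249 with DESeq2). TSPAN15, a tetraspanin that steers ADAM10, had a log2 fold change of 1.49 and overlapping groups (adjusted p = 0.289). TSPAN33, another tetraspanin of this list, lay lower in every ZEB1-KO clone (log2 fold change -0.78, adjusted p = 0.318). Over the 9 tested partners the median log2 fold change was 0.09, and 5 lay above 0.

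Of 2 tested astacin metalloproteinases, 1 was higher at an unadjusted p below 0.05. BMP1, which removes the C-terminal propeptides of procollagens, was at 1.37, 1.20 and 1.58 CPM in WT clones and 7.73, 13.4 and 3.73 CPM in ZEB1-KO clones. All 3 ZEB1-KO clones exceeded the WT clones in BMP1, with clone 2 the highest (log2 fold change 2.58, SE 0.48, adjusted p = 0.0885, and 1.08e-05 with DESeq2). Proprotein convertases cleave the prodomains of many ADAMs and membrane-type MMPs, and 3 were tested. PCSK6 and FURIN both had a log2 fold change of 0.82 with no overlap between the groups (adjusted p = 0.199 and 0.311). PCSK7 overlapped between the groups (log2 fold change 0.23, adjusted p = 0.774).

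Of 15 tested ligands, receptors and adhesion proteins that are known to be shed, 1 was higher and 1 lower at an unadjusted p below 0.05. PTK7, a receptor-like membrane protein cut by MMPs and ADAMs, had a log2 fold change of 1.76 (adjusted p = 0.203). BTC, an EGF receptor ligand, was at 10.9, 16.3 and 9.48 CPM in WT clones and 4.84, 5.83 and 7.69 CPM in ZEB1-KO clones, without overlap (adjusted p = 0.166). DESeq2, which called 4.34% of all genes higher, called 1 gene of this list, CDH2. This gene was not among the 15 tested. It had 1, 0 and 0 counts in WT clones and 3, 11 and 69 counts in ZEB1-KO clones, most of them in ZEB1-KO clone 3. CD44, the hyaluronan receptor, was the most counted of the list and overlapped between the groups, at 949 to 1303 CPM for WT clones and 992 to 1190 CPM for ZEB1-KO clones (log2 fold change -0.08, adjusted p = 0.862). Of the other regulators of matrix proteases, RECK, a membrane-anchored MMP inhibitor, had 0 counts in all 6 libraries, and BSG, which encodes the MMP inducer basigin, overlapped between the groups (log2 fold change 0.18, adjusted p = 0.809). The 3 tested members of that list and the 4 tested ADAMTS-like genes had 0 differences at an unadjusted p below 0.05.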

How the data were processed

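Libraries were made with SMART-Seq2 from oligo(dT)-primed RNA of 2000 cells per clone, per the labels' protocols. Deposited were raw read counts by gene symbol, TPM values of 11013 genes, and the authors' edgeR comparison, which per the file headers holds log2 fold changes, likelihood ratio scores and p-values before and after adjustment. TopHat2 2.1.0, HTSeq 0.6.1 and edgeR 3.2.2, with hg19 and GRCh37, are named in the submitters' processing notes, without settings. Groups came from the sample titles.

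Counts were tested with edgeR 4.0.16 in R 4.3.3 (filterByExpr with a minimum count of 10 and total of 15, TMM factors, glmQLFit and glmQLFTest on group, two-sided), with Benjamini-Hochberg adjustment over 13659 genes. SEs come from the F statistic. Alternatives used other scaling factors and filters, DESeq2 1.42.0, edgeR's likelihood ratio test, limma 3.58.1 (voom, and log2 of TPM plus 1 or 0.1), a replicate block and leaving out each library. The test was tried on simulated counts with known changes. Levels or counts per library are given for TIMP1 to TIMP4, ADAM10, ADAM17, MMP1, MMP2, MMP7, MMP9, MMP14, members at an unadjusted p below 0.05 or called by DESeq2 or in the deposited table, and untested members with at least 30 counts in a library. ADAM9, ADAM22, ADAMTS13, MMP11, MMP12, MMP13 and MMP15 were added after their values were seen, as were the motifs and the flanking genes. The members and lists were chosen with earlier results of these data known. The 3-count level reflects counting error alone, because reads copied by PCR do not each stand for a molecule. No library repeated another (chi-square of at least 123 per gene for every pair).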

Additional observations from a re-analysis of the deposited data

How the results depend on the processing

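Among the members, 0 were higher and 0 lower past the threshold in the analysis reported. The number higher was 1 without a filter on low counts (MMP3), 3 with DESeq2, 3 with the likelihood ratio test and between 0 and 1 when each library was left out in turn, and the number lower was 1 with DESeq2 and 1 with the likelihood ratio test. At an adjusted p below 0.1, a threshold chosen after seeing the data, 1 was higher (MMP3) and 1 lower (TIMP2). The count over all genes, 24 as reported, was 134 without a filter, 935 with DESeq2, 617 with the likelihood ratio test, 101, 94 and 80 with limma on log2 TPM (plus 1, plus 0.1, and plus 1 without a filter), 245 at an adjusted p below 0.1, and 5 to 25 when each library was left out. The log2 fold change of ADAM10, -0.01 as reported, turned to 0.14 with library size alone, 0.0049 with upper quartile factors, 0.0033 with limma-voom, and 0.27, 0.27 and 0.27 on the TPM scales, and lay between -0.15 and 0.094 when each library was left out. Its adjusted p was at least 0.442 throughout. Library size alone moved the median log2 fold change of all genes to 0.138. Deviations from the group mean had correlations of 0.02, 0.01 and 0.22 between same-numbered clones, and of -0.12 to 0.10 between differently numbered clones. With 3 clones per group, these values cannot settle whether the replicate numbers pair the clones. With the replicate number as a block, 0 members and 20 genes passed, the ADAM10 value was 0.0012, and MMP3 and TIMP2 had log2 fold changes of 8.61 and -1.07. Over 14 alternatives the log2 fold change of MMP3 lay between 7.62 and 10.55, with adjusted p-values from 5.73e-06 to 0.383. The causes were not tested. Depth limits the 52 untested members, of which 12 had 0 counts and 24 a highest count of 1 to 3.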

Other observations

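Antisense genes named after these proteases have count rows of their own, although reads carry no strand and those in an overlap could belong to either gene. MMP24-AS1 was the most counted of them, at 3.07, 3.85 and 3.08 CPM in WT clones and 3.59, 3.70 and 1.84 CPM in ZEB1-KO clones, with overlapping groups. MMP25-AS1 had 2, 4 and 3 counts in WT clones and 11, 7 and 6 counts in ZEB1-KO clones, too few to be tested. Its highest WT value of 0.123 CPM lay below its lowest ZEB1-KO value of 0.173 CPM. Among tested genes, 11.9% lay higher without overlap in this way. ADAMTS9-AS1, ADAMTS9-AS2 and ADAMTS19-AS1 had 0 counts in all 6 libraries.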
